A study of Mus musculus with 4 samples.

Results

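The cytosolic ribosomal protein genes encode the protein components of the ribosome that translates nuclear messages. They were taken as the protein-coding rows of the count table whose symbol is Rps or Rpl followed by a subunit number or letter, and 83 of 54532 genes met this rule, 32 of the small and 51 of the large subunit. The rule does not catch Fau, which encodes a ribosomal protein fused to a ubiquitin-like protein. It does catch a few tissue-restricted copies such as Rpl3l, Rpl10l and Rpl39l.

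The cells came from mammary tumors of C57BL/6 mice carrying a polyoma oncogene, the middle T antigen, driven by MMTV, a viral promoter active mainly in mammary epithelium, and per the series' design text the tumors grew from cells placed in the mammary fat pad. The 2 irradiated libraries came from tumors that received targeted radiation on day 30, and the 2 unirradiated libraries from tumors without it. All 4 libraries share the tumor model, the strain and the sort: digested tumors were sorted with antibodies to CD45, CD31 and TER119, which mark blood and endothelial cells, to enrich tumor cells, and cells positive for the mCherry reporter of the Notch ligand gene Dll1 were collected. The sources used here give neither ages nor the number of mice behind a library. They do not state whether 30 days also marks the time to harvest. Nothing in the labels ties the 2 libraries of a group to separate animals, so a p-value sets a difference against library spread alone, some of which may be technical. Libraries held 19931303 and 18903631 counts after radiation and 20817997 and 16811888 without it.

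Each ribosome carries a single copy of most of these proteins, and their genes are transcribed at high and matched rates. Their mRNAs begin with a C and a run of pyrimidines, the 5′ terminal oligopyrimidine (TOP) tract, through which the growth-regulating kinase mTOR and the RNA-binding protein LARP1 control their translation and stability. Free Rpl5, Rpl11 and Rpl23 bind Mdm2, the ligase that degrades p53, and in this way link ribosome assembly to the p53 response that DNA damage also engages.

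The annotated start sites of some of these genes show this element. RefSeq promoters (GRCm38.p6, 250 bases before to 50 after each annotated start) were found for 63 of the 83 genes. In 13 of the 63 (20.6%), the annotated start itself is a C followed by at least 4 pyrimidines, against 813 of 27025 genes (3.01%) in the whole table. A pyrimidine run of 8 or more that touches the 10 bases on either side of the start was present in 29 of 63 (46.0%), against 15.8% of all genes. The windows below run from 10 bases before the start to 20 from it, 5′ to 3′ on the gene's strand, with the pyrimidine run from the start in capitals. They cover Rps18, Rps15a and Rpl35a, among the genes lowest in irradiated 1 as given further on, Rpl28 and Rpl38, among those least lowered there, Rps6, the substrate of S6 kinase, and Rps10, which read unusually low in every library.
Rps18, chr17:33955646-33955675, minus strand: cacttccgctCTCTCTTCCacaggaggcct
Rps15a, chr7:118116128-118116157, minus strand: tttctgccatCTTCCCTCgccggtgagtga
Rpl35a, chr16:33056472-33056501, plus strand: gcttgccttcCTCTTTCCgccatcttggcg
Rpl28, chr7:4792955-4792984, plus strand: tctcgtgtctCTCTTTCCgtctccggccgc
Rpl38, chr11:114668570-114668599, plus strand: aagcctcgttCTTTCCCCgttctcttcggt
Rps6, chr4:86857348-86857377, minus strand: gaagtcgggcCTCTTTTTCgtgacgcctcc
Rps10, chr17:27635225-27635254, minus strand: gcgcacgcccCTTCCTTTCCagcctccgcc

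Around the annotated start, 4 motifs were searched on both strands of the whole window, from 250 bases before it to 50 after. No match of 1 motif overlapped a match of another in these promoters. CCGGAAG, a core bound by ETS factors, was in 26 of 63 promoters (41.3%), against 9.93% of all genes. GGGCGG, the GC box, was in 39 (61.9%), against 38.2%. AAGATGG, the core of the YY1 site, was in 10 (15.9%), against 7.28%, and TATAAA in 7 (11.1%), against 15.7%. In the start windows shown above, Rpl35a and Rps15a hold AAGATGG on the opposite strand, which is not marked there. The 100 bases before the annotated start are shown for Rps18 and Rpl35a, which share the low value in irradiated 1. Within these bases the genes hold different motifs, given in capitals.
Rps18, chr17:33955666-33955765, minus strand: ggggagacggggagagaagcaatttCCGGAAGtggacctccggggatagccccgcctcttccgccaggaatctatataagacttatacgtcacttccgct
Rpl35a, chr16:33056382-33056481, plus strand: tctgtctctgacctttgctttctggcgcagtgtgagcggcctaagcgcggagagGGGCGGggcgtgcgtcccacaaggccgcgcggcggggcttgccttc

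Ribosomal protein genes took 3.41% and 4.95% of all counts in irradiated 1 and irradiated 2, against 4.94% and 4.39% in unirradiated 1 and unirradiated 2. Irradiated 1 was the low library, and irradiated 2 lay beside unirradiated 1, so the groups overlapped. The Wilson 95% interval of each share covers counting error only and was narrow, for example 3.40% to 3.42% in irradiated 1. The group means were 4.18 ± 1.09% after radiation and 4.67 ± 0.39% without it (SD, n = 2 each), a difference of -0.49 percentage points. Without irradiated 1 the difference was 0.28 points, and without irradiated 2 it was -1.25 points. In bulk RNA, fewer cells of a type and less RNA per cell cannot be told apart.

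**Figure D1:**
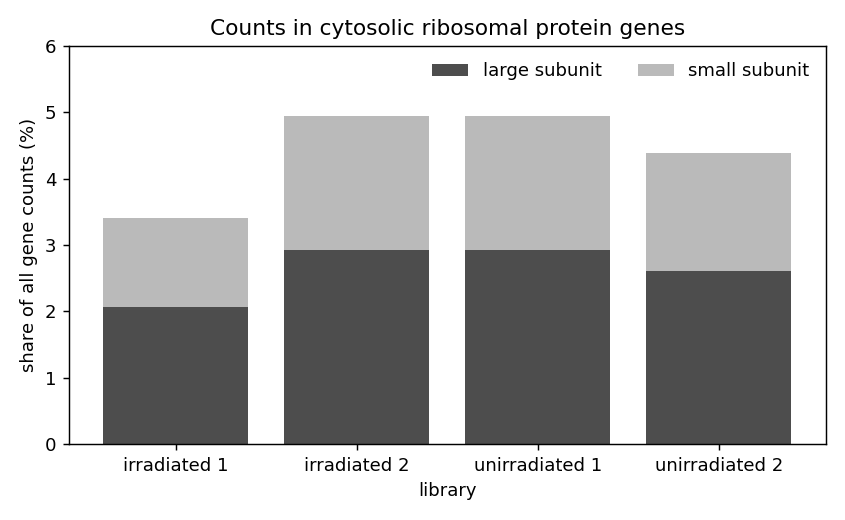
Share of all gene counts held by ribosomal protein genes in each library, in percent, split into large-subunit (dark) and small-subunit (light) genes. Irradiated 1 stands at 3.41%, and the other 3 libraries lie between 4.39% and 4.95%.

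Both subunits moved together within a library. Small-subunit genes held 1.35% and 2.03% of counts after radiation, against 2.01% and 1.78% without it. Large-subunit genes held 2.06% and 2.92%, against 2.93% and 2.61%. The log2 ratio of the small-subunit to the large-subunit CPM sum (CPM, counts scaled to library size and TMM factors) was -0.61 and -0.53 after radiation, against -0.54 and -0.56 without it. The ratio was lowest in irradiated 1 and highest in irradiated 2, so the groups overlapped here too.

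Of the 83 genes, 80 passed the filter on low counts and were tested. Rpl3l, Rpl10l and Rpl39l did not pass. In the edgeR quasi-likelihood test over all 15993 tested genes, 0 of the 80 were called higher and 0 lower at an adjusted p of 0.05, as were 0.0% of all genes in either direction. None of the 80 had an unadjusted p under 0.05 (0 of 80, against 9.25% of all genes), and the smallest adjusted p among them was 0.776. DESeq2 also called 0 of 80 either way, beside 2.96% of all genes on the higher side and 0.38% on the lower. The limma-voom count was 0 of 80, beside 0.0% of all genes. With no filter, edgeR called 0 of 82 members, beside 4.86% of all genes higher and 0.381% lower. The fitted log2 fold changes ran from -0.31 to 0.06 with a median of -0.16, beside a median of 0.00396 over all tested genes. Of the 80 fitted values 76 were negative and 4 positive. These signs depended on 1 library. Without irradiated 1, 64 of the 81 members then fitted were positive and 17 negative. Without irradiated 2, 2 of 81 were positive and 79 negative.

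The irradiated libraries differed from each other over the members. In irradiated 1, 78 of the 80 tested genes lay below both unirradiated libraries, against 42.7% of all tested genes, and the same 78 were lowest there of all 4 libraries, against 34.2%. In irradiated 2, 0 of the 80 lay below both unirradiated libraries, against 39.4% of all genes. There 40 of the 80 lay above both, against 40.3% of all genes. The other 40 (50%) lay between them, against 20.3% of all genes. Both irradiated libraries lay on 1 side of both unirradiated ones for 0 of the 80 genes, against 20.3% of all genes above and 20.0% below.

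The differences in irradiated 1 ran from -0.78 to 0.17 on the log2 scale. Relative to the unirradiated mean, the log2 difference in irradiated 1 had a median of -0.46 over the 80 genes, a level of 0.727 times that mean, with quartiles of -0.52 and -0.34, beside a median of -0.00253 over all tested genes. In irradiated 2 the median was 0.0939, with quartiles of 0.0453 and 0.15, beside 0.00411 over all genes. The unirradiated libraries also differed, and in the same direction for every tested member: unirradiated 1 lay above unirradiated 2 in 80 of 80 genes, against 50.3% of all genes, by a median of 0.18 on the log2 scale. Irradiated 1 lay below irradiated 2 in 79 of 80, against 54.5% of all genes, by a median of 0.55. Genes of 1 library share its preparation and scaling, so these counts describe 4 libraries and not 80 independent measurements.

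**Figure D2:**
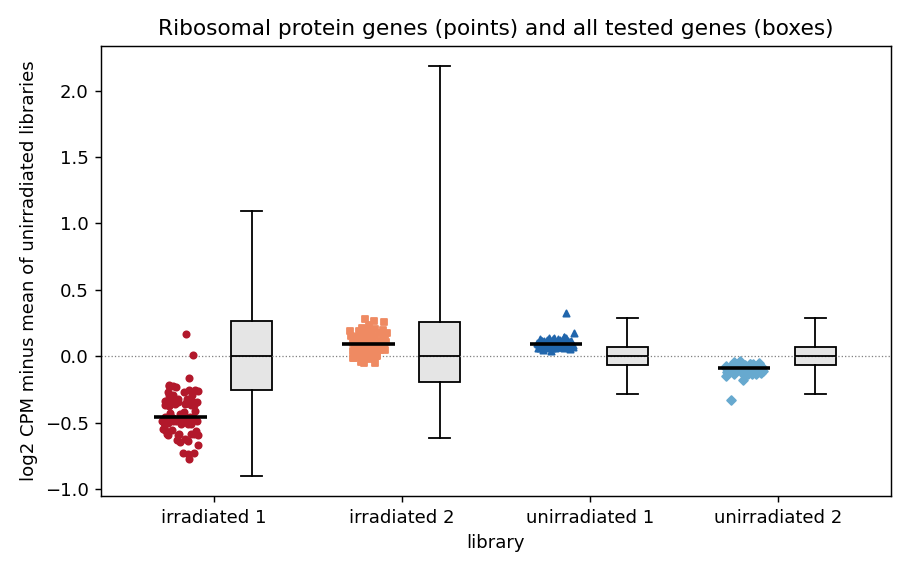
Log2 CPM of each tested ribosomal protein gene (points, 80 per library, bar at the median) minus the mean of the unirradiated libraries, beside the same for all 15993 tested genes (box at the quartiles, whiskers at the 5th and 95th percentiles). The points of irradiated 1 centre at -0.46, those of irradiated 2 at 0.0939, and the unirradiated libraries lie 0.0924 on either side of 0.

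With irradiated 2 left out, edgeR called 74 of the 80 members lower and 0 higher, against 13.9% and 11.9% of all genes. With irradiated 1 left out it called 0 of the 80 lower, against 7.95% of all genes, and 2 higher, Rps20 and Rps21, against 15.9%. Rpl3l and Rpl39l each passed the filter in 1 of these fits only through the library where they were high, so their higher values there are not read as calls. The median over the 81 members fitted was -0.47 for irradiated 1 against the unirradiated pair, and 0.0772 for irradiated 2 against it. Such fits assume that a lone irradiated library varies as the unirradiated pair does. The biological coefficient of variation over all tested genes was 39.4% between the irradiated libraries and 5.93% between the unirradiated ones.

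Rps18 and Rpl10 follow the common pattern. Rps18, a head protein of the small subunit on chromosome 17 (33951999 to 33956001, mm10), had 496 and 761 CPM after radiation, against 812 and 725 CPM without it. The low library was irradiated 1, and irradiated 2 lay inside the unirradiated range (log2 fold change -0.29, SE 0.24, edgeR adjusted p = 0.794). Rpl10, which joins the large subunit late in its assembly, lies on chromosome X (74270812 to 74273135) and had 685 and 998 CPM, against 1072 and 945 CPM. Its groups overlapped in the same way (log2 fold change -0.26, SE 0.23, adjusted p = 0.805). Leaving out 1 library at a time moved the log2 fold change of Rps18 between -0.65 and -0.0284 and that of Rpl10 between -0.57 and -0.0302. The lower ends came without irradiated 2, with edgeR adjusted p of 6.11e-09 and 4.53e-07, and the upper ends without irradiated 1, with 0.892 and 0.883.

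The other members with the smallest unadjusted p on the lower side were Rpl36a, Rpl23a and Rps27l. Rpl36a, a large-subunit gene of chromosome X, had 245 and 304 CPM, against 332 and 299 CPM. Rpl23a, whose protein sits at the exit of the peptide tunnel, had 160.3 and 218 CPM, against 240.1 and 205 CPM. Each had irradiated 1 lowest and irradiated 2 within the unirradiated range, and their edgeR adjusted p values were 0.776 and 0.786. By GENCODE M21, 62.3% of the exonic bases of Rpl23a are also exonic in another gene, mainly the opposite-strand Tlcd1. Strand is lost in this library kit, so which gene those reads came from cannot be told. This limit is not particular to Rpl23a. The largest exon overlap was on the opposite strand in 15 of the 83 members, and the opposite-strand Wdr38 covers 66.2% of the exonic bases of Rpl35.

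On the higher side the fitted change was close to 0 for all 4 members with a positive sign. Rps20 had 319 and 466 CPM after radiation, against 411 and 359 CPM without it, and Rpl41, which encodes the smallest protein of the set, had 428 and 611 CPM, against 561 and 467 CPM. In both genes irradiated 1 was the lowest library and irradiated 2 the highest. Their log2 fold changes were 0.03 (SE 0.22, edgeR adjusted p = 0.984) and 0.02 (SE 0.22, adjusted p = 0.991). Rpl24 and Rps10, the other 2, are described with their counting limits below.

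The Mdm2-binding members were likewise lowest in irradiated 1. Rpl5 had 454 and 693 CPM after radiation, against 688 and 597 CPM without it. Rpl11 had 467 and 651 CPM, against 629.9 and 555 CPM, and Rpl23 had 693 and 876 CPM, against 939.7 and 827 CPM. In all 3 genes irradiated 1 was below both unirradiated libraries, while irradiated 2 was just above both for Rpl5 and Rpl11 and between them for Rpl23. Their log2 fold changes ran from -0.17 to -0.09, with adjusted p between 0.845 and 0.941.

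The acidic stalk, which recruits the translation factors to the large subunit, is encoded by Rplp0, Rplp1 and Rplp2. Rplp0 had 1098 and 1779 CPM after radiation, against 1635 and 1482 CPM without it. Rplp1 had 819 and 1247 CPM, against 1154 and 1031 CPM, and Rplp2 had 390.3 and 573 CPM, against 564 and 512 CPM. All 3 had the lowest value in irradiated 1 and the highest in irradiated 2. Rpsa, a small-subunit gene whose product also acts as a laminin receptor, ran alongside them at 793 and 1178 CPM, against 1094 and 962 CPM. Rps27a, whose product is made as a fusion with ubiquitin, had 322 and 497 CPM, against 534 and 441 CPM, with irradiated 2 inside the unirradiated range. None of these 5 passed the edgeR test, with adjusted p from 0.834 to 0.965.

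The genes farthest from the unirradiated mean in irradiated 1 were singled out after their values were seen. Rpl17, at the tunnel exit of the large subunit, had 394 and 699.5 CPM after radiation, against 718 and 634 CPM, and Rps14, in the platform of the small subunit, had 509 and 899.95 CPM, against 909 and 791 CPM. These are log2 differences of -0.78 and -0.74 in irradiated 1 and of 0.0524 and 0.0861 in irradiated 2. Rps15a followed at 209.5 and 387 CPM, against 377 and 321 CPM. Rpl35a, also shown above by its start site, had 205 and 343 CPM, against 339 and 300.3 CPM, a log2 difference of -0.64 in irradiated 1. At the other end, leaving out Rpl22l1, Rps10 and Rpl24, which are described below, Rpl38 had 169 and 221 CPM, against 215 and 179 CPM, and Rps2 had 1204 and 1498 CPM, against 1466 and 1346 CPM, with log2 differences of -0.22 for both in irradiated 1. Each of these genes from Rpl17 to Rps2 was lowest in irradiated 1.

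Leaving out the paralogs Rpl7l1, Rpl22l1 and Rps27l and the 3 low genes described below left 74 members. Their log2 difference had an SD over genes of 0.14 in irradiated 1, 0.0743 in irradiated 2 and 0.024 in unirradiated 1. The unirradiated mean includes unirradiated 1, which makes its SD smaller by construction. It cannot be set beside those of the irradiated libraries. Within these members the difference in irradiated 1 had only a weak linear relation to gene length and abundance. The part of either in the difference was not tested. Over the 74 genes Pearson's r was -0.12 with log2 gene length and 0.083 with log2 unirradiated CPM, across genes of the same 4 libraries. Median log2 differences in irradiated 1 were -0.46, -0.38 and -0.48 for the 11 members under 1000 bases, the 31 from there up to 2000 and the 32 of 2000 or more. Over all tested genes of these lengths the medians were -0.10, -0.0795 and 0.0114.

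Members grouped by start site or by hosted RNAs had like medians. The start-site groups follow the annotated start alone. Since mRNAs of these genes begin with a TOP tract in general, the groups do not compare genes with and without one. The 13 genes with a C and pyrimidine run at the annotated start had medians of -0.46 and 0.10 (log2 difference, irradiated 1 and irradiated 2), and the 47 tested genes with a promoter entry and another start had -0.44 and 0.0742. Members that carry a noncoding RNA gene within them, 32 by GENCODE M21, had medians of -0.45 and 0.093, and the 48 other tested members -0.46 and 0.0951. The genes are spread over 19 chromosomes, with 14 on chromosome 7 and 4 on chromosome X.

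Levels of different members can be set side by side only per length, and RPKM here divides CPM by the deposited gene length, which counts the exons of all annotated isoforms. Rplp1 led at 1642 and 2499 RPKM after radiation, against 2312 and 2065 RPKM without it, above every other member in each. Rps3a1, Rplp0 and Rps15 followed. Rps3a1, a small-subunit gene, had 746 and 1037 RPKM, against 1017 and 909.5 RPKM, and the ranges of Rplp0 and Rps15, from 662 to 1072 and from 681 to 1004 RPKM over all 4 libraries, overlapped it, so the order of these 3 lies within the spread. Of the 80 tested genes 70 averaged above 100 RPKM, with a median of 299. The lowest of the 74 was Rps15a at 51.6 RPKM, whose deposited length is 6270 bases.

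**Figure D3:**
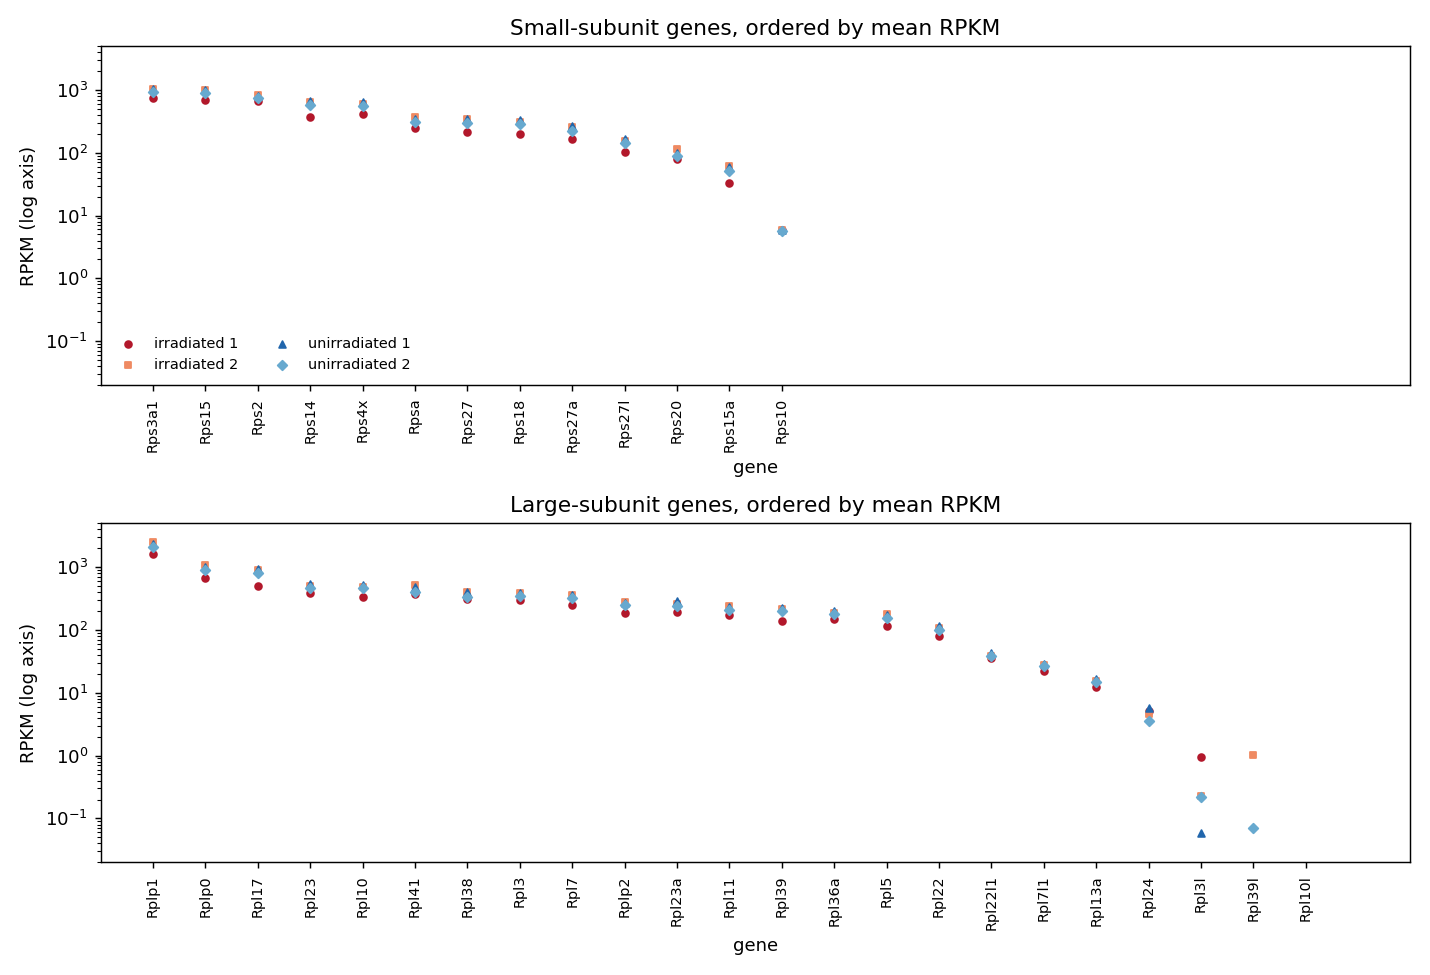
RPKM (log axis) of most members described by name, in each library, small-subunit genes above and large-subunit genes below, ordered by the mean. Rpl28, Rpl35a, Rps6 and Rps21 are not drawn. Irradiated 1 (circles) sits lowest along most of both panels, Rplp1 leads the order, and a tail from Rpl22l1 and Rps10 down reads far below the rest. Values of 0 are not drawn.

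The genes Rpl13a, Rps10 and Rpl24 read below all 74 members described above. Rpl13a had 26.0 and 33.0 CPM after radiation, against 35.2 and 31.0 CPM. Rps10 had 13.4 CPM in both irradiated libraries, and the unirradiated ones had 13.7 and 13.0 CPM. Rpl24 had 5.20 and 4.69 CPM, against 5.82 and 3.66 CPM. Per length they averaged 14.8 RPKM for Rpl13a, 5.79 RPKM for Rps10 and 4.70 RPKM for Rpl24, below the 51.6 RPKM of Rps15a. In GENCODE M21 these are the only 3 of the 83 genes whose largest exon overlap is with a longer gene on the same strand: Gm45713 covers 29.4% of the exonic bases of Rpl13a, RPS10-NUDT3 20.6% of those of Rps10 and Gm28037 47.0% of those of Rpl24. Each of these overlapping genes had 0 counts over all 4 libraries. Whether reads in shared exons were left out of the counts was not tested, since no source used here states the counting options. Rps10 and Rpl24 were also the only tested members whose value in irradiated 1 did not lie below both unirradiated libraries.

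Copies elsewhere in the genome held few counts. The table lists 298 pseudogene rows named after ribosomal protein genes, and 60 of the 83 members have at least 1. Together these rows held 0.607% and 0.569% as many counts as the members after radiation, against 0.574% and 0.578% without it. The sources used here do not say how reads that match several copies were treated.

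Several members have a related copy in the table. Rpl22l1, a paralog whose expression Rpl22 represses in mice, had 71.6 and 77.3 CPM after radiation, against 83.8 and 76.9 CPM. Rpl22 itself had 232 and 314 CPM, against 333 and 289.6 CPM. Per length, Rpl22l1 stood at 45.2% and 36.0% of Rpl22 after radiation, against 36.8% and 38.9% without it. The ratio was highest in irradiated 1, and the groups overlapped. Rps27l, a p53-induced gene in human cells, had 83.5 and 126 CPM, against 137 and 116 CPM, and stayed at 48.0% and 45.2% of Rps27, against 48.1% and 48.0%. Rps27, the partner, had 222 and 357 CPM, against 362 and 309 CPM. Rpl7l1, a nucleolar relative of Rpl7, stood at 8.84% and 7.82% of Rpl7, against 7.98% and 8.09%. None of these genes passed the edgeR test (adjusted p from 0.797 to 0.868).

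The copies below the filter were nearly absent. Rpl10l, an intronless copy that serves in male germ cells, had 0 counts in all 4 libraries, and a count of 0 allows up to 3 counts in each. Rpl39l, also a male germ cell copy, had 0 and 16 counts after radiation, against 0 and 1 without it. Rpl3l, the copy of skeletal muscle and heart, had 31 and 7 counts, against 2 and 6. The summed CPM of the skeletal muscle markers Acta1, Ckm and Myh4 was 1.87 and 8.10 after radiation, against 1.68 and 1.12 without it. Acta1 and Ckm were highest in irradiated 2, and Myh4 was at 0.202 and 0.0533 CPM after radiation, against 0 CPM in both unirradiated libraries.

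Other parts of the translation apparatus were set beside the ribosomal proteins. No gene of any of the 7 lists was called higher or lower by edgeR over all genes, and 1 each of the biogenesis, initiation and mitochondrial lists had an unadjusted p under 0.05: Tsr1, Eif3j1 and Mrps6. Mitochondrial ribosomal proteins, which build the separate ribosome of mitochondria, were also low in irradiated 1: 68 of 77 were below the unirradiated mean there, against 50.4% of all tested genes, with a median log2 difference of -0.30, and the median was 0.0295 in irradiated 2. Both irradiated libraries lay below both unirradiated ones in 16 of the 77 and above in 1, against 20.0% and 20.3% of all genes, so the count below is near that of all genes. Mrps6 had 50.1 and 45.8 CPM after radiation, against 67.8 and 59.4 CPM (log2 fold change -0.41, SE 0.12, adjusted p = 0.492), and Mrps30 had 13.0 and 16.0 CPM, against 20.2 and 18.9 CPM. In both genes the groups did not overlap.

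Elongation and release factors, 10 genes, had medians of -0.30 and 0.0441 in irradiated 1 and irradiated 2, and all 10 were below the unirradiated mean in irradiated 1, against 50.4% of all tested genes. Etf1, the release factor that reads stop codons, had 219 and 210.2 CPM, against 238 and 232 CPM, and Gspt1, its partner, had 109 and 126 CPM, against 127 and 128 CPM. The 21 other genes with a TOP tract had medians of -0.26 and 0.0726. Naca, a chaperone subunit at the ribosome exit, had 321 and 452 CPM, against 483 and 430.2 CPM. Vim is on that list too but encodes a filament of mesenchymal cells. It had 175 and 729 CPM, against 162 and 149 CPM, in step with the fibroblast markers given below. Some genes are on both of these lists.

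Initiation factors and the genes that make or drive ribosome production had medians nearer to 0. The 35 initiation factors had medians of -0.18 in irradiated 1 and -0.00195 in irradiated 2, and the irradiated pair was above the unirradiated pair without overlap in 3 and below it in 8, against 20.3% and 20.0% of all genes. Eif3j1 had 89.6 and 99.3 CPM, against 121 and 114 CPM, and Eif2b4, a subunit of the exchange factor for eIF2, had 61.6 and 60.1 CPM, against 73.1 and 66.8 CPM. The 40 ribosome biogenesis genes had medians of -0.0308 and -0.0254, with 3 above and 8 below in the same sense. The counts below in both lists are near the share of all genes. Tsr1, which matures the small subunit, had 45.7 and 42.2 CPM, against 52.3 and 56.1 CPM (log2 fold change -0.30, SE 0.11, edgeR adjusted p = 0.514), and Emg1, an 18S rRNA methyltransferase, had 59.4 and 73.8 CPM, against 77.7 and 75.8 CPM. In these 4 genes both irradiated libraries were below both unirradiated ones.

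The 13 tested snoRNA host genes, noncoding TOP transcripts, had medians of -0.0408 and -0.13. Snhg17 had 90.7 and 68.3 CPM after radiation, against 102 and 103 CPM, and Snhg15 had 26.2 and 23.3 CPM, against 29.2 and 28.8 CPM. The 24 genes of mTOR and Myc control had medians of 0.0614 and 0.000861, with 6 above and 3 below, against the same 20.3% and 20.0% of all genes. Rps6kb1, the S6 kinase gene, had 65.6 and 56.7 CPM, against 69.8 and 75.1 CPM, and Larp4, an RNA-binding protein related to Larp1, had 121 and 101 CPM, against 130.02 and 136 CPM. Myc, which drives ribosome production, was added after its values were seen and had 186 and 175 CPM, against 170.0 and 162 CPM.

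**Figure D4:**
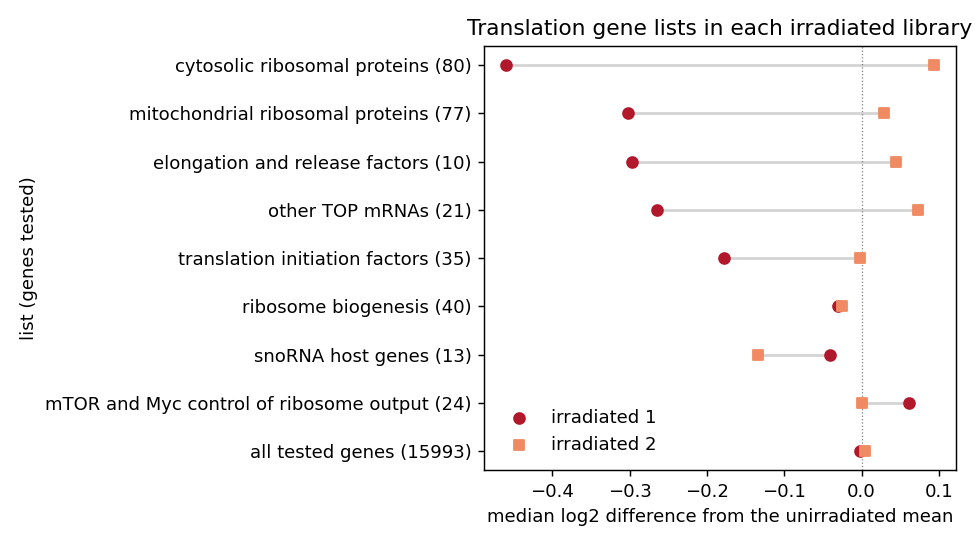
Median log2 difference from the unirradiated mean in irradiated 1 (circles) and irradiated 2 (squares) for each translation list and for all tested genes, with the number of genes tested in parentheses. The cytosolic ribosomal proteins hold the ends of the plot, -0.46 and 0.0939, and all tested genes lie near 0 in both.

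Components of the ribosome outside the naming rule include Rack1 and Fau. Rack1, a small-subunit scaffold protein, had 683 and 1065 CPM after radiation, against 1102 and 979.6 CPM, and Fau had 354 and 534 CPM, against 485 and 435 CPM. Both were lowest in irradiated 1. They are also on the list of other genes with a TOP tract and were singled out after their values were seen.

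Other measures also differed between libraries. Luminal markers of the sorted tumor cells were high in every library, at a summed 9928 and 7969 CPM after radiation, against 9431 and 9118 CPM without it, with Krt8 alone at 3323 CPM or more. Dll1, whose reporter was sorted for, had 146 and 80.2 CPM after radiation, against 130.1 and 129 CPM without it. In irradiated 1, where ribosomal protein genes were low, the basal markers summed to 537 CPM, against 343 CPM in irradiated 2 and 346 and 329.7 CPM in the unirradiated libraries. Of the 4 markers Krt14 and Krt5 were highest in irradiated 1, while Trp63 and Acta2 were not. Long noncoding RNA took 1.31% and 0.992% of counts after radiation, against 1.08% and 1.14%. The nuclear RNAs Neat1 and Malat1, picked after their values were seen, were high there too. Neat1 had 2341 and 1355 CPM after radiation, against 1580 and 1734 CPM, and Malat1 had 1445 and 1035 CPM, against 1181 and 1179 CPM. Irradiated 1 was the highest library for the long noncoding share, Neat1 and Malat1. Mitochondrial genome transcripts took 2.43% and 3.72% of counts, against 1.71% and 1.64%.

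Markers of other cell types, those the sort should remove among them, summed highest in irradiated 2. The 6 macrophage markers summed to 69.1 and 546 CPM after radiation, against 19.8 and 18.5 CPM, and the 4 endothelial markers to 24.5 and 393 CPM, against 13.5 and 12.1 CPM. The 4 fibroblast markers summed to 587 and 4272 CPM, against 430.2 and 443 CPM. The 5 markers of T and NK cells summed to 3.53 and 46.0 CPM, against 0.962 and 0.885 CPM, with Cd3d at 0 in irradiated 1 and unirradiated 2. The 4 markers of B and plasma cells summed to 11.1 and 43.7 CPM, against 3.18 and 3.07 CPM, and the 4 of neutrophils to 9.79 and 83.4 CPM, against 4.67 and 5.84 CPM. Pericyte markers summed to 29.3 and 187 CPM, against 32.8 and 32.7 CPM. Red cell markers summed to 5.60 and 30.9 CPM, against 2.02 and 3.83 CPM. Salivary secretory markers summed to 85.8 and 245 CPM, against 12.8 and 15.8 CPM. Within that list Prol1 went the other way, at 0.202 and 2.67 CPM after radiation, against 5.82 and 5.84 CPM. Adipocyte markers were at 0 and 1.07 CPM, against 0.144 and 0 CPM. The part of any of these in the ribosomal protein values was not tested. Codes in the sample titles split as treatment does, so a step tied to them and radiation cannot be told apart.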

How the data were processed

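Poly(A) RNA of sorted cells was sequenced in 4 libraries, made with a non-directional kit per the labels' protocols. The authors deposited raw counts per gene. The tools were HTSeq 0.6.1, STAR 2.5 and DESeq2 on mm10, per the submitters' processing notes. No source used here gives the annotation release or the options of the read counting. The table for irradiated 2 holds all 4 libraries, and its other columns matched the single tables at all 54532 genes. Gene length is a deposited column and equals the merged exon length of GENCODE M21 for 79 of the 83 members.

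Differences were tested in R 4.3.3 with edgeR 4.0.16: filterByExpr (minimum count 10, minimum total 15), TMM scaling, the two-sided quasi-likelihood test and Benjamini-Hochberg adjustment over 15993 genes. Log2 CPM used a prior count of 2. DESeq2 1.42.0 and limma-voom (limma 3.58.1), other scalings and filters, the replicate number as a block and each library left out were alternatives. The steps were tested on simulated data. Exact permutation of 2 against 2 libraries cannot go below p = 0.333, so no single-value test was run.

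The members and lists were chosen with earlier results of these data known. Named are Rps18, Rpl10, the Mdm2-binding, stalk and ubiquitin-fusion members, Rpsa and paralogs with their partners, then the 4 with the highest RPKM, the 5 with the smallest p on each side (the higher side held 4) and 2 per translation list. Sequences are from RefSeq, GRCm38.p6, and 20 members had no entry. Protein comparisons were not made, and some genes are not reported here by name.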

Additional observations from a re-analysis of the deposited data

How the results depend on the processing

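Among 27 named members, RLE size factors, the stricter filter, DESeq2 and limma-voom kept every sign and made no call. Rps10 turned to -0.00204 with upper-quartile scaling, -0.00445 with library size alone and -0.00433 with no filter, and Rpl41 to -0.000988 with the replicate block. The labels do not say that a replicate number marks a shared animal or batch, and the deviations of same-numbered libraries correlated at -0.099 over all genes. The replicate block called 2 genes higher over all genes, 0 lower and 0 members, with a member median of -0.18. An adjusted p threshold of 0.1 called 0 genes and 0 members. With no filter edgeR called 1338 genes higher and 105 lower, and DESeq2 called 437 and 56, with 0 members in each. The median over members lay between -0.18 and -0.15 under every alternative that kept all 4 libraries, and was -0.16 without the paralogs.

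Leaving out 1 library in turn gave 0 to 2713 genes higher, 0 to 2355 lower, 0 to 3 members higher (Rpl39l, which is below the filter with all 4 libraries, among the 3) and 0 to 74 lower, and the member median ran from -0.47 to 0.0772. The difference in share ran from -1.25 to 0.28 percentage points, and was -0.43, -0.62 and -0.49 points without mitochondrial genes, without the 50 most counted other genes and with pseudogenes added. The small to large subunit log2 difference was -0.0208, and ran from -0.0648 to 0.0233. Log2 fold changes that changed sign ran from -0.52 to 0.0932 for Rpl5, -0.36 to 0.12 for Rpl11, -0.52 to 0.18 for Rplp0, -0.43 to 0.18 for Rplp1, -0.48 to 0.0772 for Rplp2, -0.39 to 0.18 for Rpsa, -0.62 to 0.0124 for Rps27a, -0.33 to 0.042 for Rpl3, -0.48 to 0.0314 for Rpl7, -0.64 to 0.0235 for Rpl39, -0.61 to 0.074 for Rps27, -0.38 to 0.0917 for Rps3a1, -0.48 to 0.0789 for Rps15, -0.25 to 0.43 for Rpl24, -0.28 to 0.26 for Rps20, -0.28 to 0.23 for Rpl41 and -0.0441 to 0.0408 for Rps10. The cause was not tested. Depth limits Rpl3l, Rpl10l and Rpl39l, which did not pass the filter.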
